A study of Rattus norvegicus with 10 samples.

Results

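Insulin signalling components were followed in rat liver through 10 genes, which the array measured with 21 probe sets of 31042 tested. The genes were Insr, Irs1, Irs2, Grb14, Pik3r1, Pdpk1, Akt1, Akt2, Foxo1 and Foxo3, and every probe set whose single platform gene symbol was one of these names was taken. The 5 rats of the HMB group were Harlan Sprague Dawley rats given 10000 ppm of HMB (2-hydroxy-4-methoxybenzophenone, the sunscreen ultraviolet filter oxybenzone) in an NTP-2000 diet for 13 weeks. The 5 control rats, of the same strain and on the same diet, received 0 ppm. Liver RNA of each animal was measured on 1 Affymetrix rat genome expression array. The dose label of HMB replicate 1 (HMB 1) read 0 ppm, although its title and chemical named HMB, and the animal was kept with HMB. A cage held 5 rats, so a group may have shared its cage, and an effect of the cage and one of HMB cannot then be told apart. Age, sex, litter and array batch were not given in the sources used here.

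In the liver, insulin from the portal blood binds the insulin receptor, which phosphorylates the substrates Irs1 and Irs2. These dock phosphatidylinositol 3-kinase, whose lipid product brings the kinases Pdpk1 and Akt to the membrane, and active Akt phosphorylates Foxo1 and Foxo3 and so keeps them out of the nucleus. After a meal this lowers the output of gluconeogenic and fasting genes and raises lipid synthesis, and during fasting the FOXO factors return to the nucleus and activate their targets. Most of this relay runs through protein phosphorylation and movement, which an expression array does not measure. In whole liver, fewer cells of a type and less RNA per cell cannot be told apart.

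FOXO factors also act back on the pathway. In mouse and human cells they activate the genes of the insulin receptor and of Irs2, and in rat liver cells insulin represses Igfbp1 through a FOXO-binding element before its start. Upstream windows of RefSeq (assembly GRCr8, 250 bases before the start that its table takes) were found for 8 of the 10 genes. For 4 of the 8, Insr among them, that start is an inner one and the window lies inside the longest annotated extent of the gene. The windows were searched on both strands for the FOXO motif TGTTTAC and for the related CAAAACA of the Igfbp1 element. The motifs share the letters TGTTT on one strand, and the same 7 bases cannot match both. TGTTTAC was found in the window of Insr alone among the 8, and in 3.21% of all 33469 windows. CAAAACA was found in none of the 8 and in 5.46% of all windows, and of 16 genes with a window among the 17 listed genes described later it was found for Igfbp1 and Sgk1. Sgk1 had several windows, all inside its annotated gene, and the window of Igfbp1 lay before its gene. The stretch of Insr around its match (chr12:6128886-6128915, minus strand, inside the annotated gene at chr12:5991135-6129275) and the window of Igfbp1 (chr14:86261027-86261276, plus strand) are shown 5′ to 3′ with the motif in capitals, because both windows hold a match, Insr being a member and Igfbp1 a secreted product that insulin represses.
Insr: gacgggccgcgtTGTTTACtggccggagtc
Igfbp1: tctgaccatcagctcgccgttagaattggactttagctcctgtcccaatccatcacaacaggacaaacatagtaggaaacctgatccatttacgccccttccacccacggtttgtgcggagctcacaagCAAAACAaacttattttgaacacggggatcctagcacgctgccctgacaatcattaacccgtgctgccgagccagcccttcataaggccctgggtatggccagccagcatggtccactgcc

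Across the 10 genes no transcript passed the test for a difference between HMB and control livers. Of the 21 probe sets, 0 were called higher and 0 lower (limma, Benjamini-Hochberg adjusted p under 0.05 over all 31042 probe sets), where 1.70% of all probe sets were called, 0.705% higher and 0.995% lower. The adjusted p of the members ran from 0.0732 for Pik3r1 to 0.935 for a Foxo1 probe set. At an unadjusted p under 0.05 there were 5 of 21, with 3 higher and 2 lower in HMB, against 24.1% of all probe sets. For 17 of the 21 the 95% interval of the difference lay within a 1.5-fold change in either direction, as it did for 26579 of all 31042 probe sets. Only Pik3r1 had group means at least 1.5-fold apart, as did 1.41% of all probe sets. With 5 arrays in each group, their number and the spread between animals set the precision. The SE of the difference ran from 0.07 for an Akt1 probe set to 0.35 for a Foxo3 one.

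**Figure D1:**
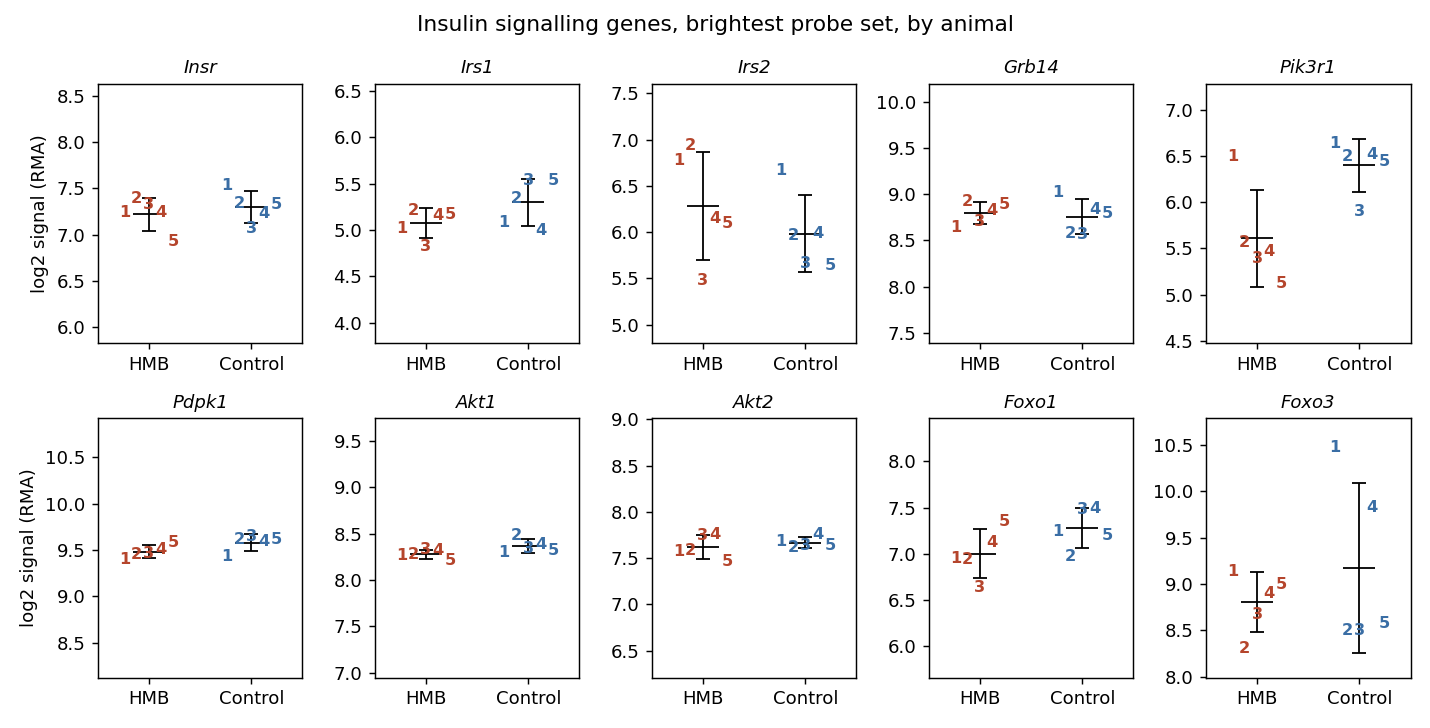
Log2 signal (RMA, vertical axis) of the brightest probe set of each of the 10 genes, with each animal drawn as its replicate number (HMB left in red, Control right in blue) and the black bar and whiskers as mean ± SD (n = 5 per group); every panel spans the same number of log2 units. Pik3r1 had 4 of 5 HMB animals below every control with HMB 1 among the controls, and Foxo3 spread most widely in the controls.

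Insr encodes the insulin receptor, and both of its probe sets had differences whose intervals included 0. The brighter (1392043_at) read 7.24, 7.39, 7.32, 7.23 and 6.93 in HMB 1 to HMB 5, against 7.54, 7.34, 7.06, 7.23 and 7.32 in controls 1 to 5, all as log2 signal. The groups overlapped, with HMB 5 alone below every control. Its log2 difference, HMB minus control, was -0.08 ± 0.11 (SE, n = 5 per group, limma adjusted p = 0.689), with a 95% interval from -0.31 to 0.16. The second probe set (1369051_at) averaged 4.75 ± 0.36 in HMB and 4.95 ± 0.09 in controls (SD, n = 5 each). It lay between 4.87 and 4.96 in 4 HMB animals and at 4.11 in HMB 3, and the log2 difference of -0.20 was -0.04 without HMB 3. That of the brighter probe set was 0.05 after cyclic loess and ran from -0.14 to 0.14 over all settings tried.

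Irs1 and Irs2 encode the main docking proteins of the receptor, and their differences had opposite signs. Irs1 (1369771_at) read 5.01, 5.21, 4.83, 5.16 and 5.16 in HMB animals 1 to 5, against 5.08, 5.34, 5.54, 5.00 and 5.53 in controls. The ranges overlapped, and the log2 difference was -0.22 ± 0.12 (SE, n = 5 per group, limma adjusted p = 0.276). Irs2, the substrate that falls after feeding and climbs in fasting in rodent liver, read 6.77, 6.93, 5.48, 6.15 and 6.09 in HMB animals, against 6.67, 5.97, 5.66, 5.99 and 5.64 in controls (1371091_at). HMB 1 and HMB 2 lay above every control and HMB 3 lay below every control. The log2 difference of Irs2 was 0.30 ± 0.26 (adjusted p = 0.492), with a 95% interval from -0.26 to 0.86 or 0.834-fold to 1.81-fold. Single animals and settings moved this value, to 0.14 without HMB 2, 0.18 without HMB 1, 0.50 without HMB 3 and 0.47 without control 1. It was 0.05 with HMB 1 moved to the controls, 1.03 with the poly-A covariate (limma adjusted p = 0.234) and -0.08 without HMB 1 and HMB 2. The spread of Irs2 within groups was wide. Its SD exceeded that of 99.3% of all probe sets in HMB animals (0.58) and of 97.0% in controls (0.41).

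Grb14, an adaptor that binds the active receptor and inhibits its kinase, had the smallest difference of the genes with a single probe set. It read 8.64, 8.92, 8.70, 8.83 and 8.89 in HMB animals, against 9.02, 8.57, 8.57, 8.84 and 8.79 in controls (1368618_at). All 5 HMB values lay inside the range of the controls. The log2 difference was 0.03 ± 0.10 (SE, n = 5 per group, limma adjusted p = 0.858). Its 95% interval of -0.19 to 0.26 corresponds to 0.879-fold to 1.19-fold. Over all settings tried the difference ran from -0.01 to 0.13.

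Pik3r1 encodes p85 alpha, the regulatory subunit of phosphatidylinositol 3-kinase, and it had the smallest p of the 21 probe sets. It read 6.50, 5.57, 5.39, 5.47 and 5.13 in HMB animals 1 to 5, against 6.64, 6.49, 5.90, 6.52 and 6.44 in controls (1370114_a_at). HMB 2 to HMB 5 lay below every control, while HMB 1, the animal with the 0 ppm dose label, lay among the controls. The log2 difference was -0.79 ± 0.22 (SE, n = 5 per group), or 0.579-fold with a 95% interval from 0.417-fold to 0.804-fold, and did not pass (limma adjusted p = 0.0732). Without HMB 1 it was -1.01 and passed (limma adjusted p = 0.0218), and with HMB 1 moved to the controls, as its dose label reads, it was -1.03 (limma adjusted p = 0.0285). After cyclic loess it was -0.70 (limma adjusted p = 0.136) and after quantile normalization -0.68 (0.148). Without HMB 2, HMB 3, HMB 4 or HMB 5 it did not pass either (limma adjusted p = 0.104, 0.126, 0.147 and 0.156). The signal of poly-A transcripts spiked into the RNA differed between the groups too, at -1.92, -1.96, -1.54, -1.78 and -1.47 in HMB 1 to HMB 5 and at -2.19 to -1.90 in controls as log2 against the hybridisation controls. The poly-A values of HMB 1 and HMB 2, with Pik3r1 at 6.50 and 5.57, lay in the control range, and those of HMB 3 to HMB 5, with Pik3r1 at 5.39, 5.47 and 5.13, lay above it. With the poly-A value as a covariate the log2 difference of Pik3r1 was -0.26 (limma adjusted p = 0.668). This gene has several transcripts, and the suffix of the probe set marks one that can match more than 1 of them.

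The 3 genes whose log2 profile over the 10 arrays lay closest to that of Pik3r1 were Il7, a lymphoid growth factor, Atxn1l, a transcriptional repressor partner of ataxin-1, and the uncharacterised LOC102547287. Likeness was the mean absolute difference between profiles centred on their own means, which was 0.18 for Il7, 0.19 for Atxn1l and 0.20 for LOC102547287 on the log2 scale. Atxn1l averaged 8.22 ± 0.48 in HMB and 8.81 ± 0.11 in controls (SD, n = 5 each), with HMB 1 at 8.85. LOC102547287 averaged 6.05 ± 0.28 in HMB and 6.75 ± 0.16 in controls. It had been chosen for its likeness, so its difference of -0.70 is given as a description.

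Pdpk1 encodes the kinase that phosphorylates Akt in its activation loop, and both of its probe sets were lower in HMB without passing the test. The brighter (1374059_at) read 9.40, 9.46, 9.46, 9.50 and 9.59 in HMB animals, against 9.43, 9.62, 9.65, 9.60 and 9.62 in controls. Control 1 lay within the HMB range, and the log2 difference was -0.10 ± 0.07 (SE, n = 5 per group, limma adjusted p = 0.425). The dimmer (1370052_at) read 7.20, 7.28, 7.01, 7.14 and 7.39 in HMB animals, against 7.31, 7.63, 7.60, 7.37 and 7.62 in controls. In this probe set 4 HMB animals lay below every control. Its log2 difference was -0.30 ± 0.10 (adjusted p = 0.102), with a 95% interval from -0.52 to -0.09. After cyclic loess the differences were -0.18 for this probe set and -0.02 for the brighter one, and after quantile normalization -0.17 and -0.04.

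Akt1 and Akt2 encode the kinases at the centre of the relay, Akt2 being the form most tied to glucose handling in mouse liver. The brightest Akt1 probe set (1383126_at) read 8.27, 8.28, 8.33, 8.32 and 8.21 in HMB animals, against 8.30, 8.49, 8.35, 8.38 and 8.32 in controls. HMB 1, HMB 2 and HMB 5 lay below every control, and the difference was -0.09 ± 0.07 (SE, n = 5 per group, limma adjusted p = 0.468). The brightest Akt2 probe set (1388765_at) read 7.57, 7.58, 7.75, 7.75 and 7.46 in HMB animals, against 7.68, 7.61, 7.64, 7.76 and 7.64 in controls. Here too HMB 1, HMB 2 and HMB 5 lay below every control, while HMB 3 and HMB 4 lay above the control mean. The difference of Akt2 was -0.05 ± 0.08 (limma adjusted p = 0.751). Its 95% interval, -0.22 to 0.13, corresponds to 0.859-fold to 1.09-fold, and that of Akt1 to 0.847-fold to 1.05-fold. After cyclic loess both signs turned, to 0.02 for Akt1 and 0.07 for Akt2.

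The other probe sets of the Akt genes did not all share that sign. A dim Akt1 probe set (1375178_at) read 3.81, 3.27, 3.68, 3.42 and 3.32 in HMB animals, against 3.14, 3.16, 2.95, 3.14 and 3.33 in controls. HMB 1, HMB 3 and HMB 4 lay above every control, and the log2 difference was 0.36 ± 0.11 (SE, limma adjusted p = 0.101), or 0.17 with HMB 1 moved to the controls (limma adjusted p = 0.502). The other Akt1 probe set (1368862_at) averaged 4.90 ± 0.20 in HMB and 5.13 ± 0.25 in controls (SD, n = 5 each). The 3 dimmer Akt2 probe sets had differences of 0.04, 0.16 and 0.13. In 1 of these (1378425_at) all 5 HMB animals, from 3.58 to 3.79, lay above all 5 controls, from 3.46 to 3.57 (adjusted p = 0.197), and its difference was 0.05 after cyclic loess.

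Foxo1 and Foxo3 encode the transcription factors that insulin holds inactive. The brightest Foxo1 probe set (1376779_at) read 6.95, 6.94, 6.63, 7.12 and 7.35 in HMB animals, against 7.25, 6.97, 7.48, 7.49 and 7.20 in controls. HMB 1 to HMB 3 lay below every control, and the log2 difference was -0.28 ± 0.14 (SE, n = 5 per group, limma adjusted p = 0.230), or -0.16 after cyclic loess. A dimmer Foxo1 probe set (1377502_at) had the opposite sign, at 5.14, 5.01, 4.93, 4.90 and 4.90 in HMB animals, against 4.85, 4.57, 4.80, 4.87 and 4.61 in controls. The groups did not overlap there, and the difference of 0.24 ± 0.09 did not pass (adjusted p = 0.139). With HMB 1, the highest animal, moved to the controls, the groups overlapped and the difference was 0.13 (limma adjusted p = 0.480). The files do not say which Foxo1 transcript each probe set measures.

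The brightest Foxo3 probe set (1376593_at) spread more within the controls than between the groups. It read 9.13, 8.31, 8.67, 8.90 and 8.99 in HMB animals, against 10.47, 8.50, 8.50, 9.83 and 8.57 in controls. Control 1 and control 4 lay above every other animal. The control SD of 0.92 was larger than that of 99.9% of all probe sets, and the HMB SD was 0.32. The log2 difference was -0.37 ± 0.35 (SE, n = 5 per group, limma adjusted p = 0.528), with a 95% interval from -1.13 to 0.38, or 0.458-fold to 1.30-fold. It was -0.05 without control 1, -0.21 without control 4 and -0.25 without HMB 2, and -0.16 with the poly-A covariate. Over all settings tried it ran from -0.54 to -0.05. The other Foxo3 probe sets were dim, at 2.94 to 3.33 in HMB animals and 2.81 to 3.02 in controls for the first and 2.53 to 2.82 in HMB animals and 2.66 to 2.80 in controls for the second. In neither did control 1 and control 4 stand above the other controls as they did in the bright probe set.

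**Figure D2:**
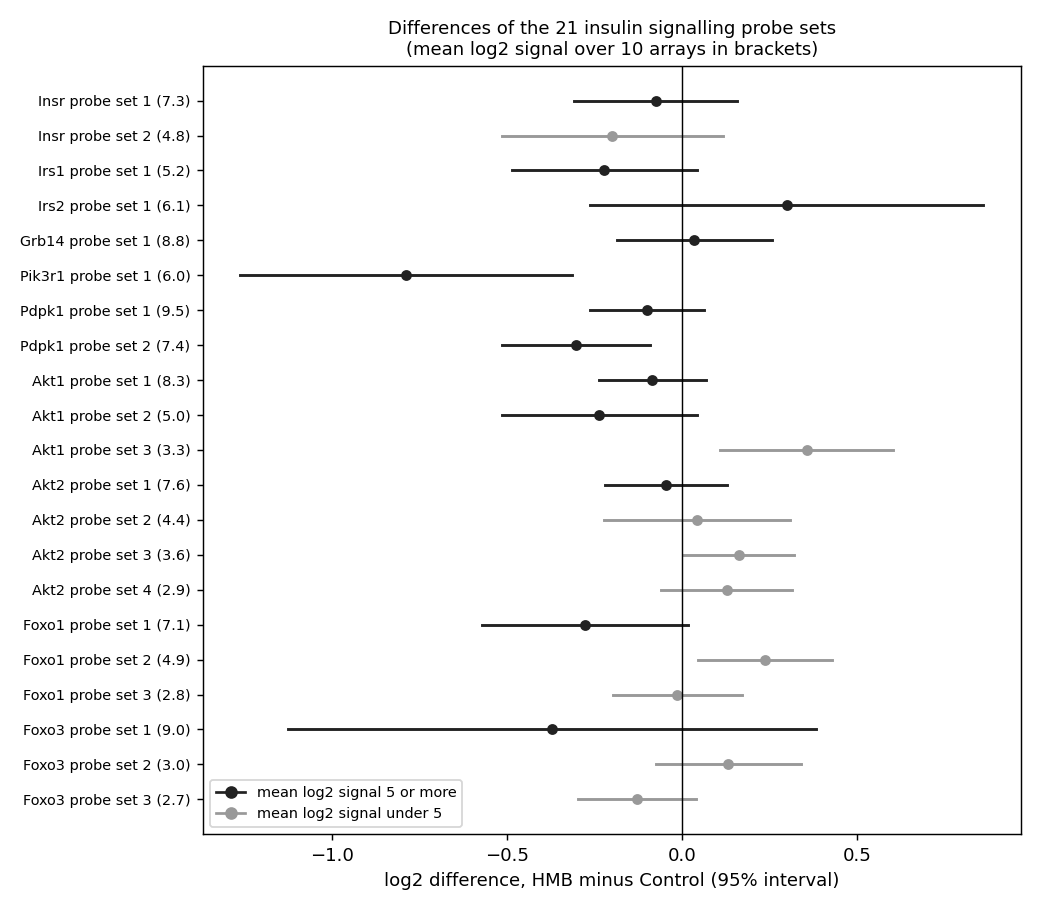
Log2 difference, HMB minus Control, of each of the 21 probe sets (points) with its 95% interval from limma (lines), n = 5 per group; black marks a mean log2 signal of 5 or more and grey a lower one, and the mean signal stands in brackets. Most black points lie left of 0 and most grey points right of it.

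The sign of the differences followed the signal of the probe sets, as it did over the whole array. Of the 12 member probe sets with a mean log2 signal of 5 or more, 10 were below 0 and the median difference was -0.16, while of the 9 dimmer ones 6 were above 0 and the median was 0.13. Over all probe sets, 72.9% of the brighter were below 0, with a median of -0.10, and the median of the dimmer was 0.09. The level of 5 was chosen after the values were seen. After cyclic loess normalization, which evens out such a trend, 7 of the 12 brighter members were below 0 (median -0.09) and 5 of the 9 dimmer were above 0 (median 0.02). Quantile normalization gave 7 of 12 below 0 as well, and setting all arrays to 1 median gave 11 of 12. Of all brighter probe sets, 53.5% were below 0 after cyclic loess, 50.4% after quantile normalization and 79.1% at 1 median. HMB and control values did not overlap in 2 of 21 probe sets, the dim Foxo1 and Akt2 ones already given, both with HMB above. Over all probe sets 5.77% had no overlap, 2.84% with HMB above and 2.93% with HMB below. Of the 6 genes with several probe sets, 4 had differences of both signs.

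The rest of the pathway was read from a list of 60 other insulin signalling genes, of which 47 were measured, each through its brightest probe set. Of these 0 were called higher and 0 lower (limma), where 1.62% of all genes were called. At an unadjusted p under 0.05 there were 11 of 47, 3 higher and 8 lower, against 24.0% of all genes. The median log2 difference was -0.06, beside -0.02 over all genes, and it was 0.00 after cyclic loess. The groups did not overlap in 4 of 47, against 6.12% of all genes.

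Sgk1, a kinase related to Akt that also phosphorylates FOXO factors, had the smallest adjusted p of that list. It read 7.70, 7.87, 8.31, 7.51 and 7.62 in HMB animals, against 8.33, 8.48, 8.86, 10.39 and 9.33 in controls. All HMB values lay below all control values, HMB 3 by a narrow margin, and the log2 difference was -1.28 ± 0.32 (SE, n = 5 per group, limma adjusted p = 0.0587). It passed when arrays were set to 1 median (limma adjusted p = 0.0498), with array weights (limma adjusted p = 0.0463) and without control 1 (limma adjusted p = 0.0292), and the other settings left it above the threshold of 0.05. Among these its difference was -1.17 after cyclic loess (limma adjusted p = 0.103), -1.02 with HMB 1 moved to the controls (0.140) and -1.53 with the poly-A covariate (0.265), and the limma adjusted p with a trended robust prior was 0.105. Grb10, an adaptor of the Grb14 family, averaged 3.80 ± 0.16 in HMB and 4.17 ± 0.13 in controls (SD, n = 5 each), again without overlap (difference -0.37 ± 0.10, limma adjusted p = 0.0663). It passed without control 1 (difference -0.41, limma adjusted p = 0.0393).

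The 4 other genes named from the list were smaller in their differences. Gsk3b, the kinase that inhibits glycogen synthase until Akt switches it off, averaged 6.36 ± 0.18 in HMB and 6.70 ± 0.09 in controls (SD, n = 5 each, limma adjusted p = 0.0775). Prkci, an atypical protein kinase C downstream of phosphatidylinositol 3-kinase, averaged 9.75 ± 0.03 in HMB and 9.98 ± 0.08 in controls, without overlap (adjusted p = 0.0896). Cbl, a ubiquitin ligase and receptor adaptor, had a log2 difference of -0.32 ± 0.11 (SE, adjusted p = 0.119). Pik3cd, a catalytic subunit of the leukocyte form of phosphatidylinositol 3-kinase, lay higher in HMB in all 5 animals by 0.23 ± 0.08 (adjusted p = 0.125). Of the 3 leukocyte markers measured, the log2 difference was 0.00 for Ptprc, 0.25 for Cd3e (adjusted p = 0.180) and -0.06 for Cd8a, and the list averaged 4.47 to 4.86 in HMB animals and 4.36 to 5.04 in controls. Their part in the Pik3cd difference was not tested.

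**Figure D3:**
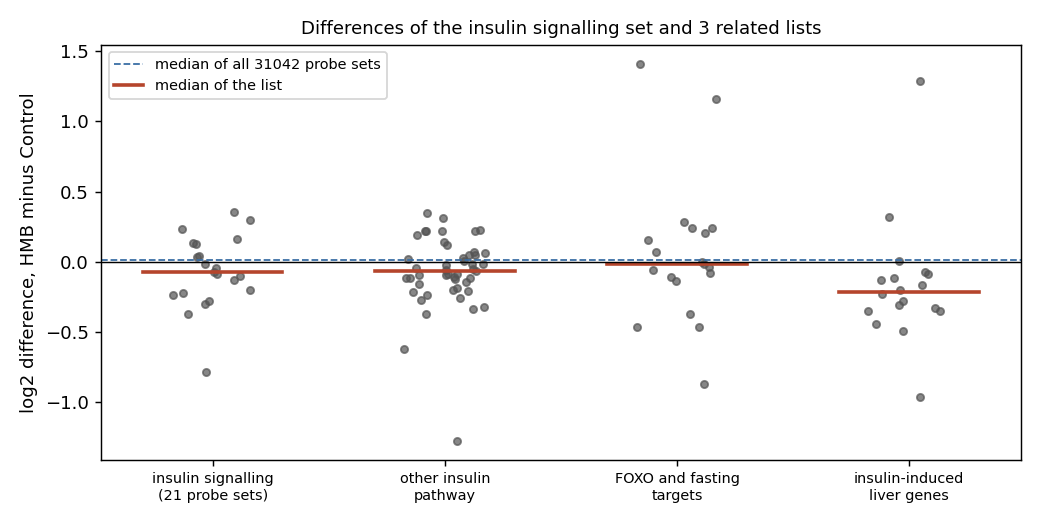
Log2 difference, HMB minus Control, of each probe set (points) in the insulin signalling set and of each gene in 3 related lists, with the median of each list as a red line and the median of all 31042 probe sets as a dashed blue line. The median of the insulin-induced genes is the lowest of the 4, at -0.22, and Bcl6, Igfbp1 and Egr1 are the points above 1.

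Genes of the fasted liver that FOXO1 activates or insulin represses numbered 20 in the list, with 19 measured. Again 0 were called in either direction, where 1.62% of all genes were. At an unadjusted p under 0.05 there were 4 of 19, 2 higher and 2 lower, against 24.0% of all genes. The median log2 difference was -0.01, or 0.04 after cyclic loess. Mttp, which loads lipid onto lipoproteins, averaged 11.21 ± 0.09 in HMB and 10.97 ± 0.07 in controls (SD, n = 5 each) without overlap (limma adjusted p = 0.0950). Fgf21, a secreted fasting hormone, averaged 5.27 ± 0.48 in HMB and 6.14 ± 0.49 in controls (adjusted p = 0.0788), and Sesn3, a FOXO target that restrains mTOR, averaged 4.05 ± 0.27 in HMB and 4.51 ± 0.38 in controls (adjusted p = 0.141). Pck1, the gluconeogenic enzyme, averaged 13.14 in both groups, with a 95% interval of the log2 difference from -0.29 to 0.28. Pck1 was chosen for mention once its values were known.

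Larger but scattered differences were measured for Bcl6 and Igfbp1. Bcl6, a transcriptional repressor, read 8.68, 10.38, 7.20, 9.80 and 10.35 in HMB animals 1 to 5, against 8.08, 7.57, 9.11, 7.40 and 7.18 in controls. Its log2 difference was 1.41 ± 0.55 (SE, n = 5 per group, limma adjusted p = 0.149). HMB 2, HMB 4 and HMB 5 lay above every control. Igfbp1, the secreted binding protein whose upstream window is printed above, read 8.76, 9.61, 6.31, 9.55 and 10.20 in HMB animals, against 8.03, 7.03, 7.98, 8.50 and 7.11 in controls. For Igfbp1, 4 HMB animals lay above every control and HMB 3 lay below every control. Its difference of 1.16 ± 0.59 did not pass (adjusted p = 0.241), and it passed only without HMB 3, at 1.80 (limma adjusted p = 0.0372), among the settings tried. Without HMB 5 it was 0.83 (limma adjusted p = 0.440), without HMB 2 0.98 (0.349) and without HMB 4 0.99 (0.396). Igfbp1 was chosen for mention in the same way.

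Genes that insulin induces in liver numbered 19 in the list, with 18 measured. Of these 0 were called, where 1.62% of all genes were, and 5 had an unadjusted p under 0.05, 2 higher and 3 lower, against 24.0% of all genes. The log2 difference was below 0 in 15 of the 18, with a median of -0.22, and over all genes in 7602 of 14217, with a median of -0.02. It was below 0 in 72.9% of all brighter probe sets, as given above. After cyclic loess 14 of the 18 were below 0 with a median of -0.18, against 53.5% of all brighter probe sets with a median of -0.01. Angptl8, a feeding-induced inhibitor of lipoprotein lipase activity, read 8.61, 7.51, 9.81, 7.98 and 7.31 in HMB animals, against 8.83, 9.34, 8.95, 9.41 and 9.51 in controls. Here 4 HMB animals lay below every control and HMB 3 lay above every control, a mirror of Igfbp1, and the difference was -0.97 ± 0.38 (SE, n = 5 per group, limma adjusted p = 0.148). It passed only without HMB 3, at -1.36 (limma adjusted p = 0.0349), among the settings tried, and was -0.73 without HMB 5 (0.289) and -0.78 without HMB 2 (0.232).

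Gys2, the liver glycogen synthase, averaged 7.92 ± 0.08 in HMB and 8.20 ± 0.19 in controls (SD, n = 5 each, limma adjusted p = 0.119), and Id1, a helix-loop-helix inhibitor, averaged 5.49 ± 0.17 in HMB and 5.82 ± 0.33 in controls (adjusted p = 0.189). Egr1, an immediate early gene, read 6.95, 8.90, 6.06, 7.91 and 8.57 in HMB animals, against 6.44, 6.58, 5.99, 5.96 and 6.98 in controls. HMB 2, HMB 4 and HMB 5 lay above every control. The difference was 1.29 ± 0.44 (SE, adjusted p = 0.117), and passed only without HMB 3, at 1.69 (limma adjusted p = 0.0484), among the settings tried. It was 0.98 without HMB 2 (limma adjusted p = 0.178) and 1.06 without HMB 5 (0.231).

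**Figure D4:**
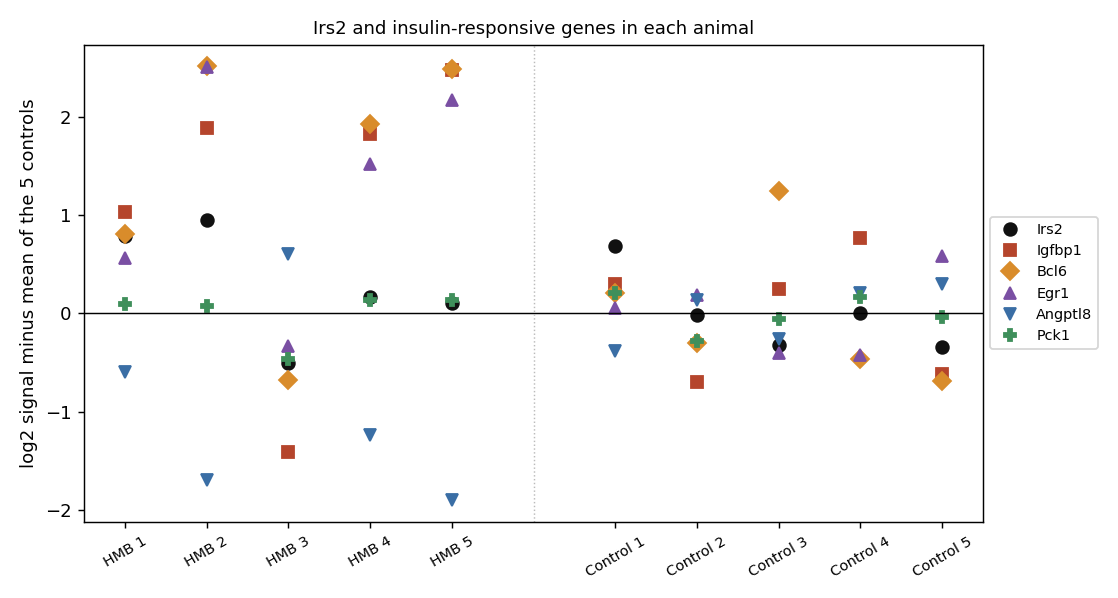
Log2 signal of Irs2 and 5 insulin-responsive genes in each animal (HMB left, Control right), as the difference from the mean of the 5 controls (vertical axis, log2 units); each symbol is 1 gene. HMB 3 has Igfbp1 at -1.41 and Angptl8 at 0.60. In the other HMB animals Igfbp1 lies between 1.03 and 2.47 and Angptl8 between -1.90 and -0.60. The 5 genes are a selection from the lists, and Igfbp1 and Pck1 were chosen once their values were known.

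HMB 3 lay below the other HMB animals in Irs2 and apart from them in the 5 responsive genes plotted with it. Relative to the mean of the controls, Irs2 was at 0.78, 0.95, 0.16 and 0.10 in HMB 1, HMB 2, HMB 4 and HMB 5 and at -0.51 in HMB 3. Among the 19 fasting targets HMB 3 held the lowest value of its group in 13, or 68.4%, against 21.8% over all probe sets. It held the highest in 3 of the 19, or 15.8%, against 21.4% over all probe sets. Mttp and Fgf21 were among these 3. Among the 18 insulin-induced genes HMB 5 held the lowest value in 12, or 66.7%, against 18.6% over all probe sets, and HMB 1 and HMB 3 held the highest in 8 each. Among the brightest probe sets of the 10 genes, HMB 3 was the lowest HMB animal for Irs1, Irs2 and Foxo1 and lay inside the range of the other HMB animals for Insr, Pdpk1 and Grb14. These per-animal patterns were noticed in these data and are given as a description.

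The arrays carried liver RNA. The 7 measured hepatocyte markers averaged 13.49 to 13.59 in HMB animals and 13.54 to 13.62 in controls as log2 signal. Of 5 pancreas markers, 4 were dim and Cela1 was bright, at 9.18 ± 0.14 in HMB and 9.27 ± 0.09 in controls (SD, n = 5 each). The dim ones included the insulin genes, at 4.05 ± 0.25 in HMB and 3.71 ± 0.18 in controls for Ins1 and 3.32 in HMB and 3.18 in controls for Ins2. The 4 adipocyte markers averaged 3.21 to 3.39 in HMB animals and 3.01 to 3.28 in controls. All 3 erythroid markers were higher in HMB, with a median log2 difference of 0.39, and Slc4a1 did not overlap between the groups (limma adjusted p = 0.0728). The 5 stellate cell and fibroblast markers averaged 4.43 to 5.09 in HMB animals and 4.91 to 5.49 in controls. Their log2 differences were not alike, at -1.27 for Lum (limma adjusted p = 0.116) and -0.53 for Dcn (0.185). The others were at -0.32 for Lrat, -0.07 for Col1a1 and 0.13 for Des. The 4 endothelial markers averaged 7.39 to 8.11 in HMB animals and 7.23 to 8.57 in controls. For the 4 Kupffer cell and macrophage markers the range was 7.41 to 8.10 in HMB animals and 6.68 to 8.54 in controls. Of all these markers 0 were called, and their part in the members' values was not tested. The poly-A value already given averaged -1.73 ± 0.22 in HMB and -2.04 ± 0.11 in controls (SD, n = 5 each, exact two-sided permutation p = 0.0238), and the SD of all log2 values was lower on every HMB array than on every control array.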

How the data were processed

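Values are log2 signals for 31099 probe sets, which the authors deposited after RMA, per the submitters' processing notes (no version given). Their depth and detection calls are not given. No 2 of the 45 pairs of arrays held identical values. The 57 Affymetrix control probe sets stayed out of the tests. Gene names came from the platform annotation (20826 with 1 symbol, 436 with several and 9780 with none). Symbols of 20758 were updated through gene identifiers to the RefSeq table of GRCr8. Each list gene was read from its brightest probe set. Tests used limma 3.58.1 in R 4.3.3 (lmFit, eBayes, 8 residual and 4.93 prior degrees of freedom) with Benjamini-Hochberg adjustment over 31042 probe sets, and were checked on simulated data. Groups came from the titles, and replicate numbers only name animals. The animals were treated as independent.

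The members and lists were chosen with earlier results of these data known. Ins1 and Ins2 were mentioned after their values were known. Named genes were all members, the 6 with the smallest p in the pathway list, the 4 with the smallest p in each other list, and 3 profiles like that of the member with the smallest p. Other settings were cyclic loess, quantile and median scaling, a filter on the lowest 25%, a trended robust prior, array weights, the dose label, a poly-A covariate, 1 probe set per gene, a threshold of 0.1 and each animal left out. Figures used matplotlib 3.10.9.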

Additional observations from a re-analysis of the deposited data

Results flagged for a closer look

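In 8 of 76 groups of 5 animals, over 38 probe sets of named genes, the highest or lowest animal stood apart from its group by Dixon's test, where chance flags about 1 in 20 groups. Values are log2 signals. HMB 3 was the lowest HMB animal of the dimmer Insr probe set at 4.11, with the next at 4.87, and of Pck1 at 12.67, with the next at 13.22. Control 3 was the lowest control of Pik3r1 at 5.90, with the next at 6.44, and the highest of a dim Akt2 probe set at 4.57. Control 1 was the lowest control of the brighter Pdpk1 probe set at 9.43. Control 2 was the highest control of an Akt1 probe set at 5.56 and the lowest of a dim Foxo3 probe set at 2.81. Control 4 was the lowest control of Pik3cd at 4.99.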

How the results depend on the processing

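No paired analysis was possible because the replicate numbers pair no animals. Of 21 member probe sets, 13 kept the sign of their difference in every setting run, and 4 of 448 such comparisons passed at the threshold of their setting, each of them Pik3r1. Among these was the main fit read at a threshold of 0.1. The others left out HMB 1, alone or with HMB 2, or grouped it by its dose label. With HMB 1 grouped by its dose label Pik3r1 passed (limma adjusted p = 0.0285). At a threshold of 0.1 the number of member probe sets changed by HMB was 1 of 21, where 2432 of all 31042 probe sets were changed. With HMB 1 and HMB 2 left out (chosen after seeing the data) it was 1 of 21, against 2094 of all. With each animal left out in turn it was 0 to 1, against 0 to 1653 of all. Of the other pathway genes, Sgk1 passed with arrays at the same median (limma adjusted p = 0.0498). Other pathway genes changed by HMB numbered 1 of 47 with array weights, where 925 of all probe sets were changed. They numbered 1 of 47 with HMB 1 and HMB 2 left out, against 2094 of all. At a threshold of 0.1 they numbered 4 of 47, beside the 2432 of all probe sets. With each animal left out they numbered 0 to 2, against 0 to 1653 of all probe sets. Of the FOXO and fasting targets, Mttp passed with a trended robust prior (limma adjusted p = 0.0430). At a threshold of 0.1 these targets numbered 2 of 19, beside the 2432 of all probe sets. With each animal left out they numbered 0 to 1, and insulin-induced genes 0 to 2 of 18, against the same 0 to 1653 of all. All probe sets changed by HMB numbered 528, against 125 after cyclic loess, 106 after quantile normalization, 925 with array weights, 244 with 1 probe set per gene, 2432 at a threshold of 0.1, 2094 with HMB 1 and HMB 2 left out, and 0 with the poly-A covariate or with HMB 3 to HMB 5 left out, where 3806 and 3276 had an unadjusted p under 0.05 by limma. With each animal left out the number ran from 0 (without control 2, control 4, control 5 or HMB 4) to 1653 (without control 1). The cause was not tested. Signals below about 3 in log2 units have no detection call here, which limits the dimmest member probe sets.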
